A study of Mus musculus with 473 samples.

Results

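Dlx1, Dlx2, Dlx5 and Dlx6 are 4 of the 28952 features measured in single cells of the mouse brain, and were taken by gene symbol as the members of the distal-less homeobox family that act in the forebrain. Dlx proteins are homeodomain transcription factors. They are known for specifying GABAergic neurons of the ventral forebrain, for switching on the glutamate decarboxylase genes Gad1 and Gad2, and for the migration of interneurons to the cortex and olfactory bulb. The genes lie in convergently transcribed pairs, Dlx1 beside Dlx2 and Dlx5 beside Dlx6, with enhancers shared between the members of a pair. Midbrain GABAergic neurons are known to use other factors instead, among them Gata2, Gata3, Tal1, Tal2 and Helt.

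Single sorted cells were profiled by Smart-Seq2, which reads polyadenylated RNA along its length. There were 473 cells, of which 396 passed the quality control of the authors. All animals carried the transgene Tg(Th-EGFP)DJ76Gsat/Mmnc, in which a bacterial artificial chromosome of tyrosine hydroxylase (Th, the rate-limiting enzyme of dopamine synthesis) drives EGFP, from hemizygous males mated to wild-type Swiss Webster females. The sort therefore took cells in which the Th transgene was active or its EGFP had lasted, and no cell was taken without EGFP. The 5 groups were forebrain (FB, named as hypothalamus for the embryos) and midbrain (MB) at embryonic day 15.5 (E15.5), and forebrain, midbrain and whole olfactory bulb (OB) at postnatal day 7 (P7). Tissue of 4 embryos or 5 pups was pooled per region, so each group is 1 pool, cells are not replicates, and no difference between groups could be tested. All errors below are SDs over cells, which give the spread of cells and not the error of a mean. Intervals of shares are exact Clopper-Pearson 95% intervals that cover counting error only.

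On 2 of the 3 P7 library plates the number of genes in the labels did not follow that of the column of the same name (Pearson r = -0.0338 and -0.0519), and it did once the columns of the 2 plates were exchanged well by well (r = 0.9987 and 0.9992). The results below rest on 249 passed cells of the 3 plates whose columns matched their labels: for E15.5, 84 forebrain and 88 midbrain cells, and for P7, 31 forebrain, 30 midbrain and 16 bulb cells. The other 147 passed cells are given beside them as the exchanged plates. Cells of the 5 groups had medians of 5554.5, 6227.5, 5164, 6126.5 and 3310 genes detected, and P7 OB cells were thus the shallowest. Values are FPKM (fragments scaled to transcript length and library size), which can be set side by side between genes, and a gene is called detected in a cell at 1 FPKM or more. En1 and Foxa2, which mark the midbrain floor, were listed at 0 in every E15.5 FB cell. Th itself was detected in 27 E15.5 FB and 26 E15.5 MB cells, and in 30 of the 31 P7 FB cells. Markers of microglia, endothelium and astrocytes were detected in at most 16.1% of the cells of any group, and those of the oligodendrocyte lineage in 31.2% to 61.3%. Their part in the results below was not tested.

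The homeobox, which encodes the DNA-binding homeodomain, is the stretch that makes these genes a family, and it is printed here so that its likeness between the 4 can be read off. The letters come from GENCODE M21 transcripts (build GRCm38, the assembly of mm10), 5′ to 3′ on the coding strand, and capitals mark a base that is identical in all 4 genes.
Dlx1: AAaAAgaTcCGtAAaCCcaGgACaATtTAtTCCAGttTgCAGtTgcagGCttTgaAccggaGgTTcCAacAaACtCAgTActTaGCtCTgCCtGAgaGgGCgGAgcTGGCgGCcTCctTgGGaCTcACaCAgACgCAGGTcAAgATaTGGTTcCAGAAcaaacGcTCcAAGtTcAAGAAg
Dlx2: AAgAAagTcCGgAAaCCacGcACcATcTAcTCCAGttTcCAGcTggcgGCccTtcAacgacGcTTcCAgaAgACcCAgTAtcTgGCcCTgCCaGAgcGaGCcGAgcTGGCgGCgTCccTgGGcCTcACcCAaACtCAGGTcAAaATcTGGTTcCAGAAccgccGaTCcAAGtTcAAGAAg
Dlx5: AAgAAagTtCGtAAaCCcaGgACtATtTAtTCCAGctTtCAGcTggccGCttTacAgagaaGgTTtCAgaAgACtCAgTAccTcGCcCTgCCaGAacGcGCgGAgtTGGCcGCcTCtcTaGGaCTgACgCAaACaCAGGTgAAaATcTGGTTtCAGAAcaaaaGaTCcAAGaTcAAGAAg
Dlx6: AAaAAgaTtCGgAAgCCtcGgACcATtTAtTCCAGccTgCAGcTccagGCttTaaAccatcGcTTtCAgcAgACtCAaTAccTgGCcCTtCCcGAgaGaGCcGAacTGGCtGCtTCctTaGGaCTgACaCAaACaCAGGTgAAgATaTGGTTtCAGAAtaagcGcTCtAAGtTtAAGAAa

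Of the 180 homeobox bases, 108 (60%) were identical in all 4 genes. Pairs of genes shared 71.7% (Dlx2 and Dlx6) to 77.8% (Dlx1 and Dlx6), and the neighbours were no more alike than the rest, at 74.4% for Dlx1 and Dlx2 and 73.9% for Dlx5 and Dlx6. The longest exact run that any pair shared in its full transcripts was 23 bases. In each gene the homeobox spans 2 coding exons, for example chr2:71531019-71531156 and chr2:71532264-71532305 in Dlx1. Dlx1 lies at chr2:71528113-71533981 on the plus strand and Dlx2 at chr2:71543408-71546754 on the minus strand, with 9426 bases between them. Dlx6 lies at chr6:6863334-6868568 on the plus strand and Dlx5 at chr6:6877805-6882085 on the minus strand, with 9236 bases between them. Dlx1as, an antisense transcript, shares 335 exonic bases (6.21%) with Dlx1. Dlx6os1, which is antisense across the Dlx6 locus and overlaps no exon of Dlx5 or Dlx6, shares none. Whether fragments were counted by strand is not given in the sources used here, so a small part of the Dlx1 value cannot be told apart from Dlx1as. The same 335 bases are a larger part of Dlx1as, which has 1630 exonic bases. Its value in cells with Dlx1 is therefore the more uncertain of the 2.

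Dlx genes were the rule in forebrain and olfactory bulb cells and the exception in midbrain cells. At least 1 of the 4 was detected in 68 of 84 E15.5 FB cells (80.95%, interval 70.9% to 88.7%), 27 of 31 P7 FB cells (87.1%, 70.2% to 96.4%) and all 16 P7 OB cells (79.4% to 100%). The share was 14 of 88 E15.5 MB cells (15.9%, 8.98% to 25.3%) and 0 of 30 P7 MB cells (0% to 11.6%). The intervals of both midbrain groups lay below those of the 3 other groups. On the exchanged plates the counts were 46 of 50 forebrain, 0 of 45 midbrain and 52 of 52 bulb cells. The P7 result rests on this handling of the plates: with the columns of all 3 P7 plates taken by name, the shares were 65.4% for forebrain, 54.7% for midbrain and 57.4% for bulb cells.

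**Figure D1:**
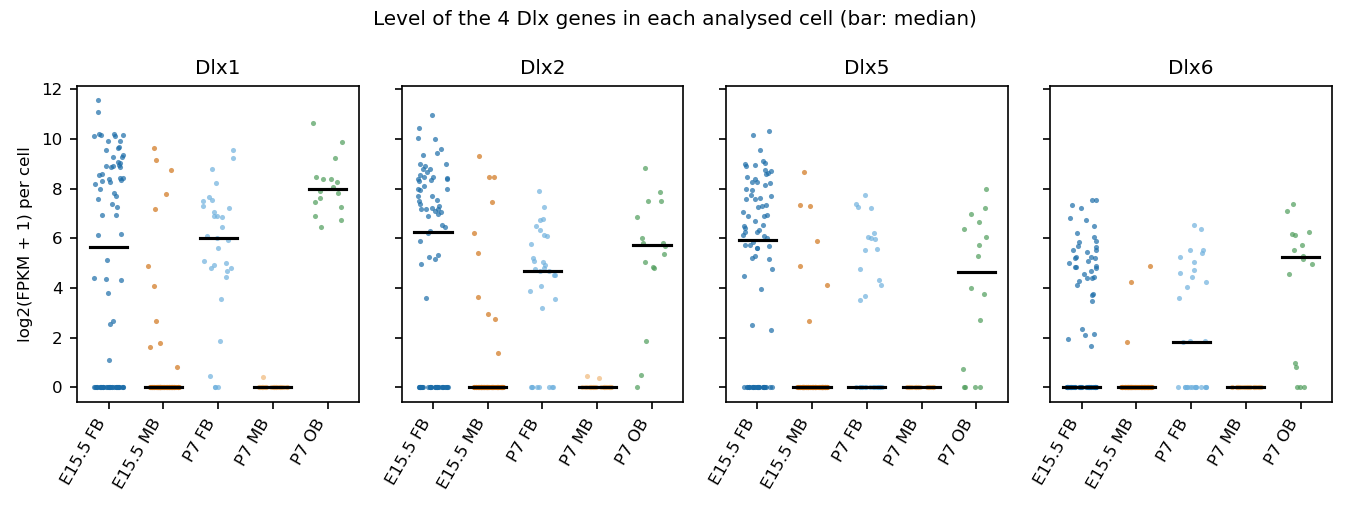
Level of each Dlx gene in each of the 249 analysed cells, as log2(FPKM + 1), by age and region (FB forebrain, MB midbrain, OB olfactory bulb); points are cells and bars are medians. All 16 P7 OB cells hold Dlx1 at 86.5 FPKM or more, while no P7 MB cell reaches 1 FPKM for any of the 4 genes.

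Dlx1, the member with the highest mean in every group where members were detected, averaged 377 ± 393 FPKM in P7 OB, 314 ± 508 in E15.5 FB, 128 ± 176 in P7 FB, 25.1 ± 115 in E15.5 MB and 0.0115 ± 0.0630 in P7 MB (SD over the cells of each group). In P7 OB the values ran from 86.5 through a median of 250.6 to 1621 FPKM, with no cell at 0. E15.5 FB cells ran from 0 through 51.7 to 3012, with 34 cells at 0, and P7 FB cells from 0 through 63.3 to 743. The olfactory bulb cells were thus uniformly positive, whereas the embryonic forebrain mixed cells without Dlx1 with the highest cells of the series. In E15.5 MB the median was 0 and the highest cell 790 FPKM, and in P7 MB 1 cell had a value above 0, of 0.345 FPKM. The means of E15.5 FB and P7 OB differed by less than either SD, as did those of P7 FB and E15.5 MB.

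Dlx2, which acts largely in parallel with Dlx1, followed the same order except that E15.5 FB led as deposited. With each cell rescaled to the same sum P7 OB led, at 187 against 181 for E15.5 FB. Its mean was 201 ± 332 FPKM in E15.5 FB, 94.8 ± 119 in P7 OB, 41.5 ± 52.6 in P7 FB and 19.0 ± 88.2 in E15.5 MB. The medians were 75.7, 52.6, 24.7 and 0 FPKM, and the highest cells 2014, 456, 235.5 and 644 FPKM. Neighbours in this order differed by less than the larger of their SDs over cells, and all of these groups overlapped. It was detected in 49 of 84 E15.5 FB, 23 of 31 P7 FB and 14 of 16 P7 OB cells.

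Dlx5, a partner of Dlx6 with roles in olfactory bulb interneurons as well as in the skeleton, averaged 154.5 ± 235 FPKM in E15.5 FB, where it was the member detected in most cells (56 of 84). Its mean was 55.9 ± 71.3 FPKM in P7 OB (median 26.7, highest 253), 35.9 ± 57.6 in P7 FB (median 0, highest 211) and 9.41 ± 49.1 in E15.5 MB. Dlx6 was the lowest member in every group where members were detected, at 46.4 ± 48.99 FPKM in P7 OB, 23.6 ± 41.4 in E15.5 FB, 16.0 ± 24.2 in P7 FB and 0.558 ± 3.58 in E15.5 MB. Its highest cell was 186 FPKM in E15.5 FB and 166 FPKM in P7 OB. Both genes were listed at 0 in every P7 MB cell. With cells rescaled to the same sum, Dlx6 was higher in P7 FB (33.7) than in E15.5 FB (23.1). For both genes, the groups with detected cells overlapped and neighbouring means differed by less than the larger of their SDs over cells.

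The 2 other Dlx genes in the table, Dlx3 and Dlx4, which act mainly in skin, placenta and skeleton, were listed at 0 in all 249 cells. Both antisense transcripts were detected mainly in cells with a member, with 1 exception: an E15.5 MB cell had Dlx1as at 11.5 FPKM and all 4 members at 0. In cells with Dlx1, fragments of the shared exonic bases cannot be assigned to Dlx1as or Dlx1, so the Dlx1as values there are uncertain. Dlx1as averaged 51.5 ± 161 FPKM in E15.5 FB (detected in 24 of 84 cells) and 22.2 ± 68.3 in P7 FB (6 of 31). Dlx6os1, also known as Evf2, a noncoding RNA from the Dlx5 and Dlx6 enhancer region, averaged 63.3 ± 149.5 FPKM in E15.5 FB (36 of 84 cells) and 27.4 ± 104 in P7 FB (8 of 31). Both were listed at 0 in all P7 MB cells.

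Between regions of the same age, all 4 members were at least 2-fold higher in the forebrain. Ratios here are log2 of mean FPKM plus 1, over the features with a mean of 1 FPKM or more in either group. E15.5 MB over E15.5 FB gave -3.59 for Dlx1, -3.33 for Dlx2, -3.90 for Dlx5 and -3.98 for Dlx6. In the same comparison 9.41% of 14405 features were at least 2-fold higher in FB, and the median of all features was -0.12. P7 MB over P7 FB gave -7.00 for Dlx1 and -5.38 for Dlx2, against a background of 13.8% of 13041 features that high in P7 FB. No ratio is given for Dlx5 and Dlx6 there, since P7 MB was listed at 0, and they count as 2-fold apart on log2 of mean plus 1 against 0. P7 MB over P7 OB gave -8.55 for Dlx1 and -6.55 for Dlx2, where 20.3% of 12896 features were at least 2-fold higher in OB. Both of these P7 comparisons use the same P7 MB cells. Dlx1 was 1 of 4 features (0.031%) whose lowest P7 OB cell lay above the highest P7 MB cell. For the other members, and for all 4 in the remaining comparisons, cells of the groups overlapped.

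P7 OB cells had higher means than P7 FB cells for all members, but here the background was large and the size of the difference varied between plates. P7 FB over P7 OB was -1.55 for Dlx1, -1.17 for Dlx2, -0.62 for Dlx5 and -1.48 for Dlx6. The 3 members at least 2-fold apart stand beside 18% of 12867 features that were as much higher in OB. With the exchanged plates added 1 member passed, and with columns taken by name none did. The exchanged plates were on a lower scale. Their median FPKM sum per cell was 2.21e+05 in FB and 2.14e+05 in OB, against 5.18e+05 and 5.46e+05 on the matched plate. Levels of the 2 sets of plates are therefore not to be compared directly. On the exchanged plates alone the Dlx1 means were 33.4 FPKM in FB and 91.03 FPKM in OB, and those of Dlx2 13.9 and 16.5 FPKM. Dlx5 averaged 9.81 FPKM in FB and 23.7 FPKM in OB there, a wider gap as a ratio than on the matched plate, and Dlx6 7.35 and 12.9 FPKM.

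Between ages the ratios moved with the scale of the values. The median FPKM sum per cell was about 1.05e+06 in E15.5 FB and 5.18e+05 in P7 FB, and the median of all features was -1.20 in P7 FB over E15.5 FB. Against that shift Dlx1 stood at -1.29, Dlx2 at -2.25, Dlx5 at -2.07 and Dlx6 at -0.54, and 58.8% of 14088 features were at least 2-fold higher at E15.5, as 3 members were. With every cell rescaled to the same sum, the median of all features was -0.31, Dlx1 stood at -0.27, Dlx2 at -1.26, Dlx5 at -0.94 and Dlx6 at 0.53, and 27.1% of features were that high at E15.5. Dlx2 alone thus remained at least 2-fold lower at P7 under both of these scales, and the sign of Dlx6 turned. With the mean of log2(FPKM + 1) over cells in place of the log2 of the mean, Dlx5 alone was at least 2-fold lower at P7 (-1.94), and Dlx1 stood at 0.76, with the opposite sign. In the midbrain, P7 over E15.5 gave -4.69 for Dlx1 and -4.29 for Dlx2, with a background of 58.4% of 14082 features and a median of -1.18. The E15.5 MB means rest on few cells, as described below. Of the 4 members, 3 were at least 2-fold apart there, with Dlx5 counted on log2 of mean plus 1 against 0. Dissociation was longer at P7 and followed by a density gradient, and no library plate held cells of both ages. Neither the dissociation nor the plates can be told apart from age.

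**Figure D2:**
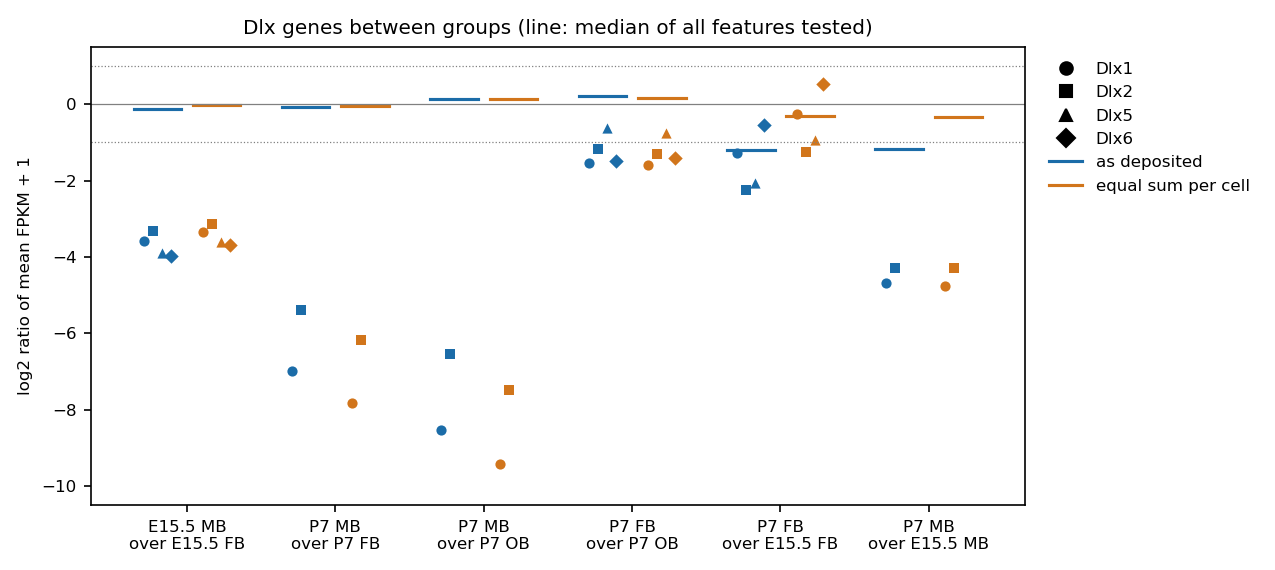
Log2 ratio of mean FPKM plus 1 for each Dlx gene (symbols) in the 6 comparisons, as deposited (blue) and with each cell rescaled to the same FPKM sum (orange); horizontal bars are the medians of all features tested, dotted lines mark 2-fold, and genes listed at 0 in one group have no point. The midbrain ratios lie at -3.15 or below on both scales, while those of P7 FB over E15.5 FB move by about the shift of all features.

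Most positive cells held several members. In E15.5 FB 24 cells had all 4 members, 20 had 3, 16 had 2 and 8 had 1. In P7 FB the counts for 4, 3, 2 and 1 were 8, 12, 6 and 1, and in P7 OB they were 7, 6, 3 and 0. The exchanged plates had 14, 13, 16 and 3 for P7 FB and 12, 18, 17 and 5 for P7 OB. All 4 together was the most frequent combination in each of these groups on the matched plates, at 28.6%, 25.8% and 43.8% of cells. A missing member at this depth does not show that the cell lacked it.

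**Figure D3:**
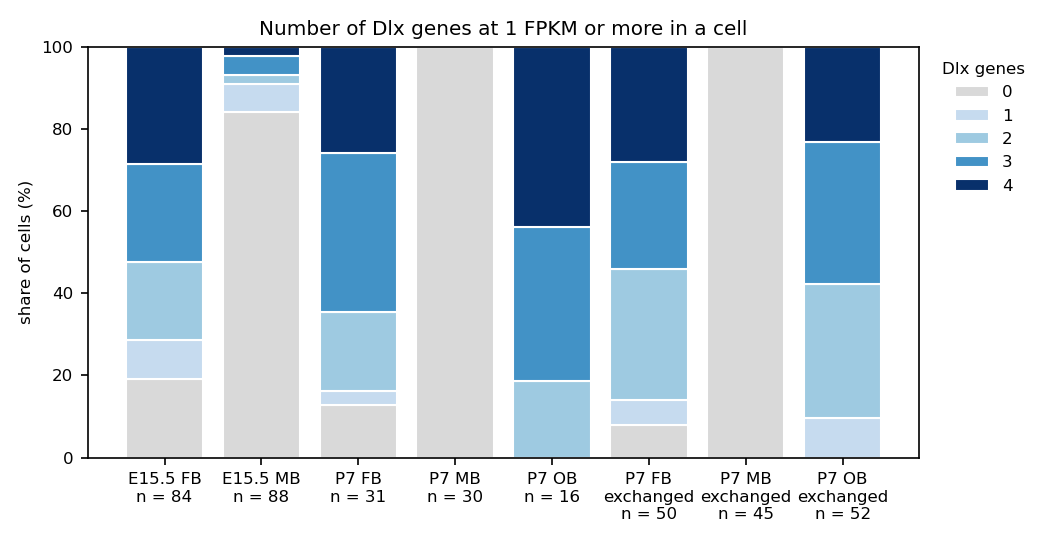
Share of cells with 0, 1, 2, 3 or all 4 Dlx genes at 1 FPKM or more, by group, for the plates that matched their labels and for the 2 plates whose columns were exchanged; n is the number of cells. Midbrain cells are nearly all without a Dlx gene (84.1% at E15.5 and 100% at P7), and more than 80% of cells of each other group hold at least 1.

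By level, Dlx1 and Dlx2 went together more closely than any other 2 members in E15.5 FB, whereas by detection pairs of neighbours did not stand out throughout. In E15.5 FB Dlx2 was detected in 84% of the 50 cells with Dlx1 and in 20.6% of the 34 without it. Dlx6 was detected in 64.3% of the 56 cells with Dlx5 and in 17.9% of the 28 without it. Across the pairs, Dlx5 was detected in 86% of the cells with Dlx1 (38.2% of those without it), and Dlx1 in 76.8% and Dlx2 in 71.4% of the cells with Dlx5. The Pearson correlation of log2(FPKM + 1) over the 84 cells was 0.77 for Dlx1 with Dlx2 and 0.46 for Dlx5 with Dlx6. Across the pairs it was 0.62 for Dlx1 with Dlx5, 0.46 for Dlx2 with Dlx5, 0.35 for Dlx1 with Dlx6 and 0.31 for Dlx2 with Dlx6. These are descriptions over cells that share a pool and 2 plates. The number of genes detected correlated negatively with each member, from -0.25 for Dlx1 to -0.11 for Dlx6.

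In P7 FB on the matched plate Dlx1 was detected in every cell that had any other member, whereas 4 of the 46 Dlx-positive cells of the exchanged plates lacked it. The correlation of Dlx1 with Dlx2 was 0.67 over 31 cells, and it was 0.36 over the 50 cells of the exchanged plates. That of Dlx5 with Dlx6 was 0.15 on the matched plate and 0.55 on the exchanged plates, so the value for this pair depended on the plate. In P7 OB the highest value of any pair was 0.44 over 16 cells (Dlx1 with Dlx6), and Dlx1 with Dlx2 gave -0.07 (0.11 over 52 cells of the exchanged plates). Dlx1 was present in all bulb cells of the matched plate, whatever the level of the others.

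Cells with a Dlx gene mostly carried GABAergic markers. In E15.5 FB Gad1 was detected in 61 of the 68 Dlx-positive cells (89.7%, interval 79.9% to 95.8%) and in 4 of the 16 others (25%, 7.27% to 52.4%). Its median was 305 FPKM in the former and 0 in the latter. Gad2, the second glutamate decarboxylase, was detected in 67 of 68 against 4 of 16 cells, and Slc32a1, the vesicular GABA transporter, in 40 of 68 against 1 of 16. Slc17a6, the vesicular glutamate transporter VGLUT2, showed the opposite, with 4 of 68 against 12 of 16 cells. Cells without a Dlx gene had more genes detected, with a median of 6601.5 against 5437, so the missing Dlx and Gad1 values did not come with fewer genes. Of the 7 Dlx-positive cells without Gad1, 6 had Gad2.

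Within E15.5 FB, Gad1 was detected more often in cells with more members. The share with Gad1 was 25% with no member, 75% with 1, 81.3% with 2, 95% with 3 and 95.8% with 4. The Gad1 medians were 0, 95.2, 104, 404 and 435 FPKM over 16, 8, 16, 20 and 24 cells. Over all 84 cells, log2(FPKM + 1) of Gad1 correlated with Dlx1 at 0.50, Dlx2 at 0.49, Dlx5 at 0.51 and Dlx6 at 0.43. No member reached 0.22 with Th. P7 cells did not show this order in the share with Gad1. In P7 FB the share with Gad1 was 100% with 1, 2 or 3 members and 87.5% with 4, and on the exchanged plates 100% with 1 or 2, 92.3% with 3 and 92.9% with 4. The Gad1 medians of P7 FB did rise with the number of members on the matched plate. With 0, 1, 2, 3 and 4 members they were 0, 13.8, 96.7, 125.5 and 176.6 FPKM, over 4, 1, 6, 12 and 8 cells. On the exchanged plates they were 15.7, 123.8, 30.7, 36.1 and 63.3 FPKM, without that order. The P7 FB correlations with Gad1 over 31 cells were 0.31 for Dlx1, 0.22 for Dlx2, 0.31 for Dlx5 and -0.02 for Dlx6. In P7 OB every cell had Gad1, with medians of 736, 733 and 577 FPKM at 2, 3 and 4 members.

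In P7 FB 26 of 27 Dlx-positive cells had Gad1 (96.3%, 81.03% to 99.9%) and none had Slc17a6, while 1 of the 4 Dlx-negative cells had Gad1 and 3 had Slc17a6. The Dlx-negative cell with Gad1 had it at 1044.5 FPKM. Of the 3 with Slc17a6, 1 held Th at 4569 FPKM and another at 1499 FPKM. On the exchanged plates Gad1 was detected in 44 of 46 Dlx-positive and 3 of 4 Dlx-negative cells. All 16 P7 OB cells and all 52 of the exchanged plates had Gad1 beside a Dlx gene, and none of them had Slc17a6. P7 MB had neither the Dlx genes nor Gad1 in any of 30 cells, and 2 of the 45 cells of the exchanged plates had Gad1 and no Dlx gene.

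**Figure D4:**
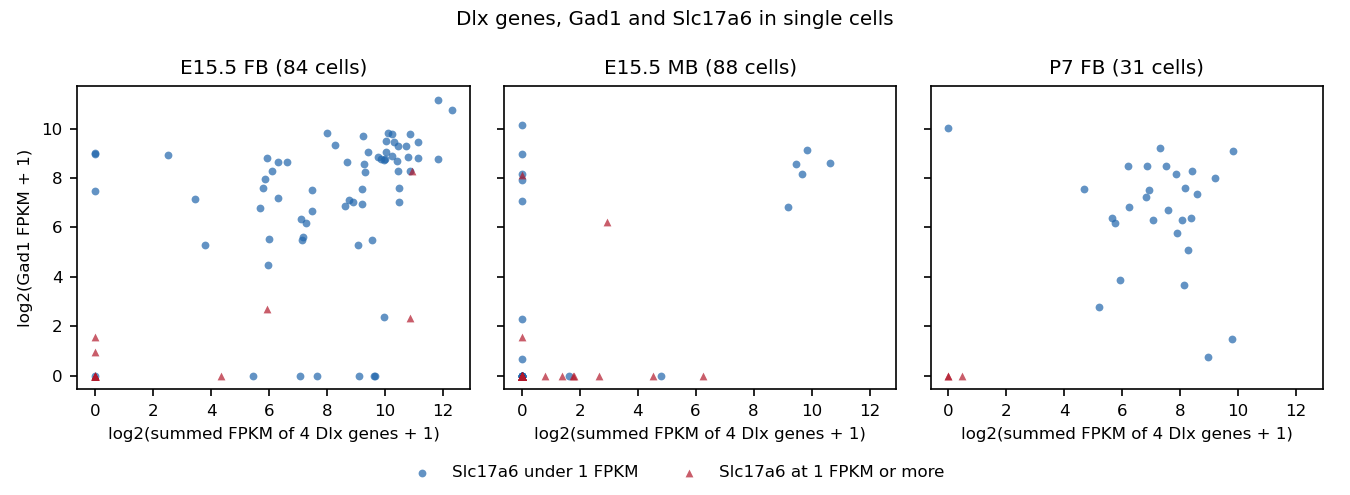
Summed FPKM of the 4 Dlx genes against Gad1 FPKM, both as log2 of the value plus 1, in single cells of E15.5 FB, E15.5 MB and P7 FB; red triangles are cells with Slc17a6 at 1 FPKM or more. In E15.5 MB 5 cells with summed Dlx of 585 FPKM or more stand apart at high Gad1, and most cells with Slc17a6 lie at or near 0 on both axes.

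The 14 Dlx-positive cells of E15.5 MB ranged widely in level. In 5 of them the summed Dlx level was 585, 706, 811, 924.5 and 1589 FPKM. These 5 held Dlx1, Dlx2 and Dlx5, Gad1 at 114 to 558 FPKM and no Slc17a6. The other 9 had sums of 1.63 to 75.2 FPKM, and 1 of them had Gad1 (74.2 FPKM). The 5 cells supplied nearly all of the E15.5 MB means. They were singled out after their values were seen. All 5 carried the cluster label E15.MB.1, 2 of them were on one E15.5 plate and 3 on the other, and 4 of them had Isl1, a LIM-homeodomain factor that was also detected in most E15.5 FB cells with a Dlx gene, at 128 to 1265 FPKM. The fifth had Lhx6, a factor of interneurons from the medial ganglionic eminence, at 1295 FPKM. En1 and Foxa2 were both listed at 0 in all 6 E15.5 MB cells that had a Dlx gene and Gad1, while En1 was detected in 28 and Foxa2 in 11 of the 74 Dlx-negative cells. Most of those 74 cells lacked En1 too, and most lacked Foxa2, so the absence of either from 6 cells tells little. The origin of the 6 was not tested. Another 8 cells of E15.5 MB had Gad1 and no Dlx gene, and in those Gata2, Gata3, Tal1, Tal2, Helt and Sox14 were all listed at 0. However, Gata3 and Helt were listed at 0 in every E15.5 MB cell. Of the 8 cells, 1 had Gad1 at only 1.94 FPKM and another at 3.85 FPKM, both with Gad2 and Slc32a1 at 0. The share of E15.5 MB cells with a Dlx gene was 8.89% on the plate with 45 of these cells and 23.3% on the plate with 43.

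**Figure D5:**
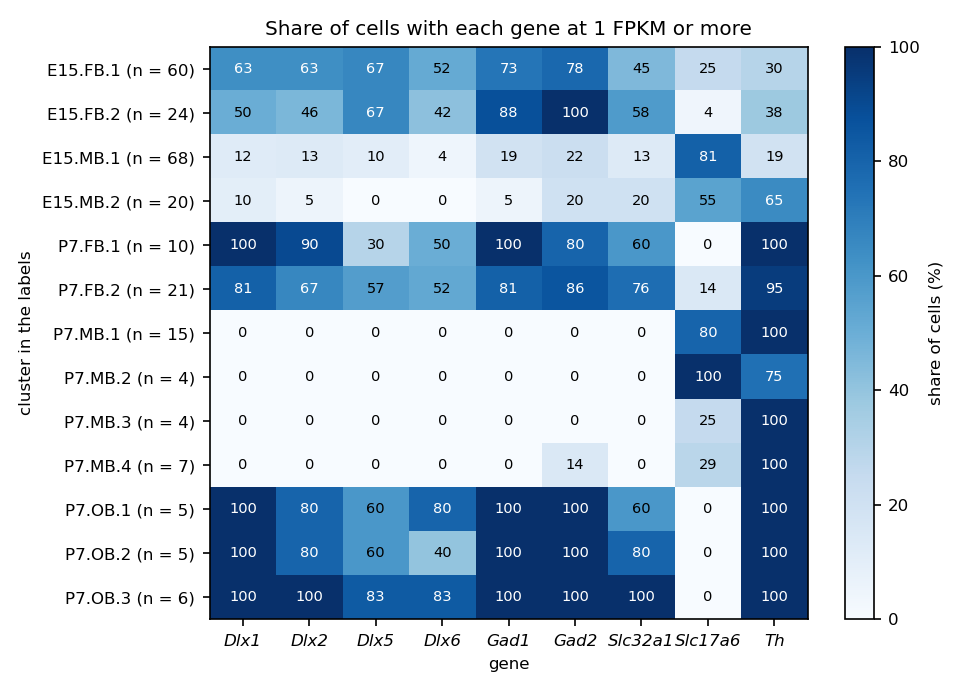
Share of cells (%) with each gene at 1 FPKM or more in the 13 clusters named in the labels; n is the number of analysed cells. Dlx1 is detected in all cells of the 3 P7 OB clusters and of P7.FB.1, and in none of the 4 P7 MB clusters, in which Th is detected in 75% or more of the cells.

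Clusters in the labels were made from these cells, so their levels are described and not tested. In E15.FB.1 (60 cells) Dlx1 averaged 362 ± 555 FPKM and Dlx2 242 ± 376, and in E15.FB.2 (24 cells) 194 ± 344 and 99.5 ± 140 FPKM. All 4 members were detected together in 35% of E15.FB.1 and 12.5% of E15.FB.2 cells, but a cell without any member was also more frequent in E15.FB.1 (23.3% against 8.33%). The 2 P7 FB clusters had near equal Dlx1 means of 123 ± 222 (10 cells) and 131 ± 156 FPKM (21 cells), of which the highest cell supplied 60.5% in P7.FB.1. Dlx5 was detected in 3 of 10 P7.FB.1 and 12 of 21 P7.FB.2 cells, and Dlx6 averaged 4.94 ± 7.02 and 21.3 ± 27.7 FPKM. On the exchanged plates Dlx5 was detected in 37.5% of 16 and 61.8% of 34 cells of the same clusters. The 4 Dlx-negative cells of P7 FB all belonged to P7.FB.2, as did the 4 on the exchanged plates.

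Within the bulb, Dlx1 averaged 652 ± 626 FPKM in P7.OB.1 (5 cells), 298 ± 180 in P7.OB.2 (5 cells) and 215 ± 104 in P7.OB.3 (6 cells), differences within the SD of P7.OB.1. The 5 cells of P7.OB.1 had Th at 2.32, 2.79, 2.82, 116 and 1201 FPKM, against 899 FPKM or more in the other 11 bulb cells. The 2 highest Dlx1 values of the bulb, 932 and 1621 FPKM, were in P7.OB.1. On the exchanged plates the Dlx1 means of the 3 clusters were 107, 85.8 and 80.96 FPKM, close to each other, while Dlx6 was detected in 20% of P7.OB.1 (15 cells), 64.3% of P7.OB.2 and 88.9% of P7.OB.3 cells. On the matched plate Dlx6 was instead detected in 4 of 5 P7.OB.1 cells, so this order was not the same on the 2 sets of plates.

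At E15.5 most forebrain GABAergic factors known to act with Dlx followed the members between regions, while the upstream and migration lists did not. Of 16 forebrain GABAergic factors, 15 could be measured in E15.5 MB against FB, and 10 were at least 2-fold higher in FB (9.41% of all features) and none in MB, with a list median of -2.16 against -0.12 for all features. Among them were Isl1 (658 FPKM in FB, 24.9 in MB) and the zinc finger factors Sp8 (34.5 and 0.497) and Sp9 (27.1 and 1.16). All 5 genes of the GABA phenotype were at least 2-fold higher in FB, against the same 9.41%. Of the 3 measured factors upstream of Dlx, 1 was at least 2-fold higher in FB and 1 in MB, with a list median of -0.28. The former was Nkx2-1, a factor of the ventral forebrain, at 29.8 FPKM in FB and 3.96 FPKM in MB. Of the 4 measured migration genes downstream of Dlx, 0 were at least 2-fold higher in either region, with a list median of -0.33. All 8 midbrain dopaminergic genes were at least 2-fold higher in MB, where 8.46% of features were, and so was Slc17a6 at 120.1 against 19.7 FPKM. Whether the mix of cell kinds in each sort sets the Dlx ratios was not tested.

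At P7 the count for the forebrain factors was 11 of 13 at least 2-fold higher in FB than in MB (13.8% of all features; list median -2.30, all features -0.08). It was 9 of 11 higher in OB than in MB (20.3% of all features; list median -4.21, all features 0.13). Bulb and forebrain cells with Dlx genes differed in these companions. Etv1 was at 214 FPKM in P7 OB and 15.06 in P7 FB, Sp8 at 43.1 and 4.09, and Sall3 at 35.1 and 0.0265, all known in bulb interneurons. Isl1 was at 89.1 FPKM in P7 FB and listed at 0 in P7 OB, as were Six3 and the prokineticin receptor Prokr2. Between P7 FB and P7 OB, 6 of 15 factors were at least 2-fold higher in FB (31.1% of all features) and 8 in OB (18%). Between ages in the forebrain, 10 of 15 factors were at least 2-fold lower at P7 (list median -2.80, all features -1.20), a share near the 58.8% of all features. Dcx, a microtubule protein of migrating neurons, was at 388 FPKM at E15.5 and 19.1 FPKM at P7.

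Within E15.5 FB the same factors were found mainly in the Dlx-positive cells. Sp9 was detected in 29 of 68 Dlx-positive and 0 of 16 other cells, Sp8 in 39 and 2, Isl1 in 51 and 2, and the hypothalamic and forebrain factor Six3 in 38 and 1. Meis2, a TALE homeodomain factor, was detected in 44 of 68 and 6 of 16 cells, and Dcx in all of both. Lhx6 and Lhx8, which mark derivatives of the medial ganglionic eminence, were detected in only 8 and 6 of the 68 cells. Of the upstream factors, Gsx1 was detected in 2 and Nkx2-1 in 9 of the 68, and Gsx2 was listed at 0 in every analysed cell. In P7 FB, Isl1 was detected in 20 of 27 Dlx-positive cells and Gsx1 in 11 of 27, against 1 and 0 of 4 Dlx-negative cells.

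The genes whose levels were most like the members, by Pearson correlation of log2(FPKM + 1) over all 249 cells among 11443 genes, were mostly other members and the GABA genes. For Dlx1 they were Dlx2 (0.84), Gad1 (0.71), Dlx5 (0.71), Gad2 (0.70), Dlx6os1 (0.60) and Dlx1as (0.59). The value for Dlx1as is uncertain because it shares exonic bases with Dlx1. For Dlx2 the highest apart from members were Gad2 (0.68), Gad1 (0.67) and the processed transcript Gm14204 (0.59). Dlx5 had Gad2 (0.69), Gad1 (0.64), Dlx6os1 (0.64) and Isl1 (0.53), and Dlx6 had Gad1 (0.56), Gad2 (0.54) and Sp8 (0.48). Gad1-ps, a processed pseudogene of Gad1, also came up for Dlx1 and Dlx6, and its value is uncertain because it can share fragments with Gad1. All of these genes differ between the regions, which the cells share. Within E15.5 FB alone Dlx2 was still nearest to Dlx1 (0.77), and Dlx6os1 (0.63) was nearer to Dlx5 than any member was. Within the 31 P7 FB cells, among 10546 genes, Dlx2 was again nearest to Dlx1 (0.67). For Dlx5 and Dlx6 the nearest genes, Umad1 (0.64) and Mpp1 (0.66), were neither members nor GABA genes. No member was among the first 100 for Dlx5. Whether values this high exceed those of unrelated genes over so few cells was not tested. The order also depended on the plate, since Dlx5 with Dlx6 gave 0.15 here and 0.55 over 50 cells of the exchanged plates.

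Plates of the same age differed in level. In E15.5 FB Dlx1 averaged 388 ± 418 FPKM on the plate with 43 of these cells and 237 ± 582 on the plate with 41, Dlx2 273 ± 380 and 125.5 ± 255, and Dlx5 157 ± 218 and 152 ± 255. Dlx2 was detected in 67.4% and 48.8% of the cells of the 2 plates. The differences in mean were smaller than the SD over cells, which does not show that the plates are alike. The midbrain stayed at least 2-fold below the forebrain for all 4 members on each plate alone.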

How the data were processed

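The authors deposited 1 table of FPKM values for 473 cells. Per the submitters' processing notes, HISAT2, Cuffnorm and the mm10 build were used, and versions, filters and the strand of counting are not given in the sources used here. FPKM keep no read totals, so depth is unknown, and genes detected per cell stand in for it. Groups, clusters and the quality call of each cell came from the labels. Columns were used by name on the 3 plates where the labelled gene count correlated with that of the column at r of 0.9 or more, and were exchanged well by well on the other 2 plates as an alternative. A gene was detected at 1 FPKM. Each group is 1 pool of animals, so no test was run. Ratios are log2 of mean FPKM plus a pseudocount of 1, over features with a mean of 1 FPKM or more in either group, and a member was counted at 2-fold or more. Likeness used Pearson correlation among genes detected in at least 10% of cells. Named genes were the 4 members, examples from 14 gene lists, and the 5 genes most like each member. The members and lists were chosen with earlier results of these data known. The 77 cells that failed quality control were left out. Alternatives covered the pseudocount, detection at 10 FPKM, cells with at least 4000 genes, rescaling to an equal sum, the filter on low values and each plate alone. The ratio code was tested on simulated data, and the share code was not. Python 3.11.15, numpy 2.4.6, pandas 2.3.3, scipy 1.17.1 and matplotlib 3.10.9 were used.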

Additional observations from a re-analysis of the deposited data

Results flagged for a closer look

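Among cells left out of the main comparisons, Dlx genes also appeared. Of the 8 P7 OB cells that failed quality control on the matched plates, 4 had a Dlx gene (50%, interval 15.7% to 84.3%). The counts for failed cells of the other groups were 2 of 9 in E15.5 FB, 0 of 7 in E15.5 MB, 2 of 5 in P7 FB and 0 of 5 in P7 MB. On the 2 P7 plates with exchanged columns, 92% of P7 FB cells (46 of 50) and 100% of P7 OB cells (52 of 52) had a Dlx gene, against 0 of 45 P7 MB cells.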

How the results depend on the processing

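No paired analysis was possible because each group is 1 pool of animals and no test was run. Of the alternative values for the counts and shares, 115 stayed within their tolerance and 11 moved; of those for single genes, 117 stayed, 81 moved and 4 changed sign. With the columns of all 3 P7 plates taken by name, the share of cells with a Dlx gene was 65.4% for P7 forebrain, 54.7% for P7 midbrain and 57.4% for P7 bulb cells, the members at least 2-fold apart numbered 0 for P7 FB against OB and 1 for P7 MB against E15.5 MB, Dlx2 stood at 0.0301 in P7 FB over OB, and Dlx1 at 0.29 in P7 MB over E15.5 MB. With the exchanged plates added, which had lower FPKM sums per cell, 1 member was 2-fold apart between P7 FB and OB. For P7 FB against E15.5 FB the count was 1 with the mean of log2 values, where Dlx1 stood at 0.76, and 1 with cells rescaled to the same sum. For P7 MB against E15.5 MB it was 0 with the mean of log2 values. On 1 E15.5 plate alone, 8.89% of E15.5 MB cells had a Dlx gene. Each exchanged plate alone was added after seeing the data: on 1 of them 100% of Dlx-positive P7 FB cells had Gad1, and on the other Dlx2 stood at 0.0497 in P7 FB over OB. The cause was not tested. Without the filter on low values, the share of features past 2-fold in either direction was 8.89% in place of 17.9% for E15.5 MB against FB, 11.1% for 24.6% (P7 MB against FB), 22.3% for 50.1% (P7 MB against OB), 21.8% for 49.2% (P7 FB against OB), 31.9% for 65.6% (P7 FB against E15.5 FB) and 30.9% for 63.6% (P7 MB against E15.5 MB).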
